A study of Mus musculus with 11 samples.

Results

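The 8 genes described here carry stress hormone signalling: the corticosteroid receptors Nr3c1 and Nr3c2, the glucocorticoid-induced genes Fkbp5, Sgk1 and Tsc22d3, and the corticotropin-releasing hormone genes Crh, Crhr1 and Crhbp. They were chosen by symbol, and all 8 had a row in each of the 11 count files, out of 32531 genes. All 8 passed the filter on low counts that left 16417 genes to test. The mice were adults of the Glt25d2-EGFP/Rpl10a DU9 line, a line of transgenic mice in which EGFP-tagged ribosomal protein Rpl10a is driven by regulatory DNA of Glt25d2 (now Colgalt2), used to mark pyramidal neurons of the cerebral cortex. Every group, controls included, carried this transgene and came from a study of intravenous self-administration of the short access kind. The groups were cocaine self-administration (3 immunopurified libraries and 1 unbound library), yoked controls (3 immunopurified libraries) and saline self-administration (3 immunopurified libraries and 1 input library). Immunopurified (IP) RNA was bound to tagged ribosomes pulled down through EGFP, unbound RNA was what the pull-down left behind, and input was RNA before it. The labels do not say what the yoked mice received, how many mice made up a library or when tissue was taken, so p-values measure only the spread between libraries. The tissue label is cerebral cortex while the extraction text names whole striatum, and markers of both regions were detected: 12 layer 5 pyramidal markers summed to 718 to 1536 CPM (scaled read counts, defined with the levels) over the IP libraries, and 9 striatal projection neuron markers to 347 to 659 CPM.

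Corticosterone, the main glucocorticoid of mice, enters neurons and binds 2 nuclear receptors. The mineralocorticoid receptor, encoded by Nr3c2, has the higher affinity and is largely occupied at rest. The glucocorticoid receptor, encoded by Nr3c1, fills during stress and at the daily hormone peak, moves to the nucleus and acts on DNA at glucocorticoid response elements. Fkbp5, Sgk1 and Tsc22d3 are widely used readouts of that activity. Upstream, corticotropin-releasing hormone (Crh) from the hypothalamus starts the hormone cascade, and in the cortex it is also made by interneurons, acts on pyramidal neurons through Crhr1 and is bound outside cells by the secreted protein encoded by Crhbp.

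A sequence of the kind that the glucocorticoid receptor binds lies in a promoter window of its target Sgk1. It is shown here because Sgk1 was the only glucocorticoid-induced gene of the 3 whose searched windows held the full element. RefSeq promoter windows of 300 bases (250 before and 50 after an annotated start, build GRCm38.p6) were found for 6 of the 8 genes, 13 windows in all, 6 of them at alternative starts of Sgk1. The window at chr10:21993640-21993939 on the plus strand holds the palindrome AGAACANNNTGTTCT, read 5′ to 3′ below with the element in capitals.
Sgk1 promoter: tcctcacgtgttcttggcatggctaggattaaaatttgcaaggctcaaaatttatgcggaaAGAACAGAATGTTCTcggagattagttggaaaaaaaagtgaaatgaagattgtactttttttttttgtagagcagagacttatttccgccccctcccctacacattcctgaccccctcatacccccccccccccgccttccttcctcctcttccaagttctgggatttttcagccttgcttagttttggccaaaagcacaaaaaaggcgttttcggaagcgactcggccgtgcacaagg
The element AGAACAGAATGTTCT begins at base -189 from that start. The palindrome, with any 3 bases between its arms, occurred in 3 of 32851 promoter windows of all genes, 0.0091% of them. One arm of it, TGTTCT, searched on both strands and overlapping the palindrome, was present in 3 of the 6 Sgk1 windows and in 1 of the 3 Tsc22d3 windows, against 19.0% of all windows. The cyclic AMP response element TGACGTCA occurred in 1.79% of all windows and in none of these 13. A match here describes the letters and not receptor binding. DNA outside these windows was not searched, so elements of Fkbp5 or Tsc22d3 that lie elsewhere would be missed.

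All positions are on GRCm38 (the mm10 assembly) from GENCODE release M21, and all 8 genes are protein-coding. Nr3c1 lies on chromosome 18 (39410545 to 39519421, minus strand) and Nr3c2 on chromosome 8 (76899442 to 77245012, plus strand). Fkbp5 is on chromosome 17 (28399094 to 28517527, minus strand), Sgk1 on chromosome 10 (21882184 to 21999903, plus strand) and Tsc22d3 on the X chromosome (140539528 to 140600659, minus strand). Crh is on chromosome 3 (19693401 to 19695396, minus strand), Crhr1 on chromosome 11 (104132855 to 104175523, plus strand) and Crhbp on chromosome 13 (95431371 to 95444924, minus strand). Exonic overlap with another annotated gene was found for Nr3c2, where Gm10649 on the opposite strand shared 247 bases, 3.82% of the Nr3c2 exonic length. The labels do not say whether counting used the strand, so reads of that stretch cannot be told apart.

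Levels are given as CPM, the read count of a gene scaled to a library of 1000000 gene reads after TMM scaling (a correction for library composition) over all 11 libraries. Between genes they are compared per kilobase of exon. Nr3c1 was the highest of the 8, at 23.2 CPM per kb averaged over the 9 IP libraries, and was above Tsc22d3 (14.2 CPM per kb) in 8 of the 9. Tsc22d3 was above Sgk1 (10.6 CPM per kb) in 9 of 9. Sgk1 was above Crhbp (7.29 CPM per kb) in 8 of 9. Crhbp and Nr3c2 (5.04 CPM per kb) were not separated, since Crhbp was the higher in 6 of 9 libraries. Below them came Fkbp5 (3.53 CPM per kb, below Nr3c2 in 9 of 9), Crhr1 (2.13 CPM per kb, below Fkbp5 in 9 of 9) and Crh (1.25 CPM per kb, below Crhr1 in 8 of 9). Crh rested on 18 to 102 reads per library, so its counting error is large, and intervals from counts cover counting error only. In these bulk samples fewer cells of a type and less RNA per cell cannot be told apart.

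**Figure D1:**
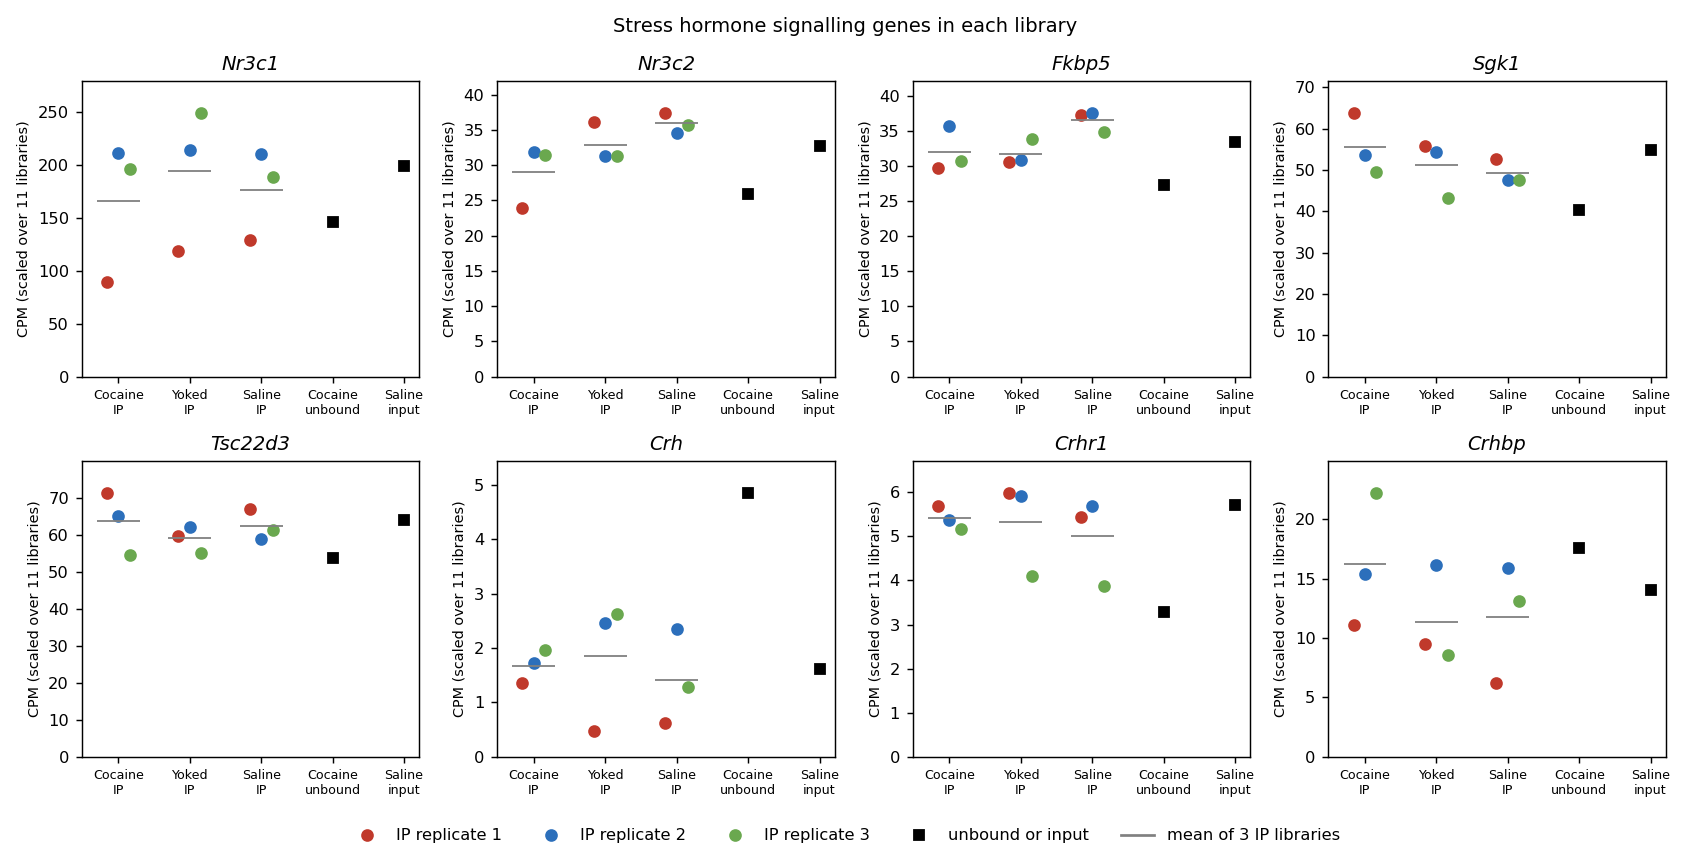
Level of each of the 8 genes in each library, in CPM on an axis from 0; points are IP libraries coloured by replicate number, squares the single unbound and input libraries, grey lines the mean of 3 IP libraries. The libraries numbered 1 (red) are the lowest of their group for Nr3c1, while Fkbp5 stays between 29.7 and 37.6 CPM in all 9 IP libraries.

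The 3 IP libraries numbered 1 stood apart from the other 6 across all genes: the first principal component of the 9 held 77.0% of the variance and placed them at -85.7 to -43.8, against 14.9 to 43.1 for the rest. Total gene counts ran from 20926712 to 53862653 over the 11 libraries. Each IP group was sequenced on a lane of its own, so that lane and treatment cannot be told apart. The library labels also give each replicate number the same short base sequence in every IP group. That sequence and the replicate number cannot be told apart either. Treatment results are therefore given for all libraries and, where a direction changed, without those numbered 1. In marker sums, saline IP libraries 2 and 3 were closer to the saline input than library 1. Nuclear noncoding RNAs summed to 371, 4862 and 5805 CPM in saline IP libraries 1, 2 and 3, against 5270 CPM in the input. Astrocyte markers gave 1029, 2473 and 2575 CPM against 2496 CPM, and layer 5 markers 1536, 823 and 935 CPM against 758 CPM. How far each pull-down enriched RNA of tagged cells was not tested.

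The first question was whether taking cocaine, against saline or against the yoked condition, altered the RNA of these genes in the IP libraries. None of the 8 passed the test. In edgeR's quasi-likelihood test on the 9 IP libraries, with Benjamini-Hochberg adjustment over 16417 genes and a threshold of 0.05, 0% of all genes passed in cocaine against saline, 0% in yoked against saline and 0% in cocaine against yoked. At an unadjusted p under 0.05 there were 168, 66 and 182 genes, and DESeq2 called 0 in each contrast. Each count is a smaller share of the 16417 genes than 0.05, the share expected without any effect. The edgeR fit had no term for replicate number, so differences between numbers entered its error and widened its intervals. For cocaine against saline the SE was 0.38 for Nr3c1 and 0.14 for Fkbp5. With replicate number added it was 0.13 and 0.12, and 0 genes were called. The lack of calls is therefore weak evidence against a change. The members' log2 fold changes lay between -0.29 and 0.53, so the account that follows gives levels and intervals rather than changes.

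Nr3c1 had 89.2, 211 and 196 CPM in the cocaine IP libraries numbered 1, 2 and 3, 118, 214 and 249 CPM in the yoked ones, and 129, 210 and 189 CPM in the saline ones. The groups overlapped, and within each group the library numbered 1 was the low one. The log2 fold change was -0.07 (95% interval -0.93 to 0.78) for cocaine against saline and 0.14 (-0.72 to 0.99) for yoked against saline. Each cocaine library was below the yoked library of its number, as for 18.7% of all tested genes, with a value of -0.21 (-1.07 to 0.65). Without the libraries numbered 1 the cocaine against saline value was 0.04.

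Nr3c2 had 23.9, 31.8 and 31.4 CPM in cocaine IP, 36.1, 31.3 and 31.3 CPM in yoked IP, and 37.5, 34.6 and 35.8 CPM in saline IP. All 3 cocaine libraries lay below all 3 saline libraries, as did 2.66% of all tested genes in that direction. The log2 fold change was -0.29 (95% interval -0.65 to 0.07; edgeR adjusted p = 0.9998), and without the libraries numbered 1 it was -0.14. Against yoked the value was -0.16 (-0.52 to 0.20), and without the libraries numbered 1 it was 0.04.

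Fkbp5, a cochaperone that lowers the hormone affinity of the glucocorticoid receptor and is itself induced by it, had 29.7, 35.7 and 30.7 CPM in cocaine IP, 30.5, 30.8 and 33.8 CPM in yoked IP, and 37.3, 37.6 and 34.8 CPM in saline IP. Here the yoked libraries lay below the saline ones without overlap, a separation found in that direction for 2.12% of all tested genes. The log2 fold change was -0.21 (95% interval -0.53 to 0.11) for yoked against saline, -0.18 (-0.50 to 0.14) for cocaine against saline and 0.03 (-0.29 to 0.35) for cocaine against yoked. The 3 contrasts share libraries and are not independent.

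Sgk1, a kinase that acts on ion channels and transporters, had 63.8, 53.7 and 49.4 CPM in cocaine IP, 55.9, 54.3 and 43.2 CPM in yoked IP, and 52.6, 47.7 and 47.6 CPM in saline IP. Its cocaine library was above the saline library of the same number in 3 of 3 cases, as in 17.6% of all tested genes, but the groups overlapped. The log2 fold change for cocaine against saline was 0.19 (95% interval -0.19 to 0.57). Tsc22d3, which encodes the anti-inflammatory protein GILZ, had 71.4, 65.1 and 54.7 CPM in cocaine IP, 59.7, 62.3 and 55.2 CPM in yoked IP, and 66.9, 58.9 and 61.3 CPM in saline IP. The groups overlapped, with values of 0.05 (-0.30 to 0.39) for cocaine against saline and -0.08 (-0.42 to 0.27) for yoked against saline on the log2 scale. For these 3 glucocorticoid-induced genes the intervals for cocaine against saline reached no farther than -0.50 and 0.57.

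Crh had 1.36, 1.72 and 1.96 CPM in cocaine IP (56, 59 and 74 reads), 0.474, 2.45 and 2.63 CPM in yoked IP (18, 96 and 87 reads), and 0.620, 2.35 and 1.29 CPM in saline IP (32, 90 and 49 reads). The cocaine libraries were the closest together, and all groups overlapped. Its cocaine against saline value, 0.26 on the log2 scale, had the widest interval of the 8, -1.20 to 1.72. Crhr1, the receptor for Crh on pyramidal neurons, had 5.68, 5.37 and 5.16 CPM in cocaine IP, 5.98, 5.91 and 4.11 CPM in yoked IP, and 5.43, 5.69 and 3.88 CPM in saline IP. Its log2 fold change was 0.13 (95% interval -0.40 to 0.65) for cocaine against saline. Crhbp had 11.1, 15.4 and 22.2 CPM in cocaine IP, 9.46, 16.1 and 8.55 CPM in yoked IP, and 6.22, 15.9 and 13.1 CPM in saline IP. One cocaine library, number 3, was above every other IP library, and the groups overlapped. The values were 0.48 (95% interval -0.44 to 1.40) for cocaine against saline and 0.53 (-0.40 to 1.45) for cocaine against yoked, the largest of the 8 genes in each of these contrasts. Without cocaine library 3 they were 0.17 against saline and 0.22 against yoked. With replicate number in the edgeR fit the value against saline was 0.54 ± 0.23 (SE, unadjusted p = 0.0349, adjusted p = 0.388). Against yoked it was 0.52 ± 0.24 (SE, unadjusted p = 0.0449, adjusted p = 0.261), so neither passed.

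**Figure D2:**
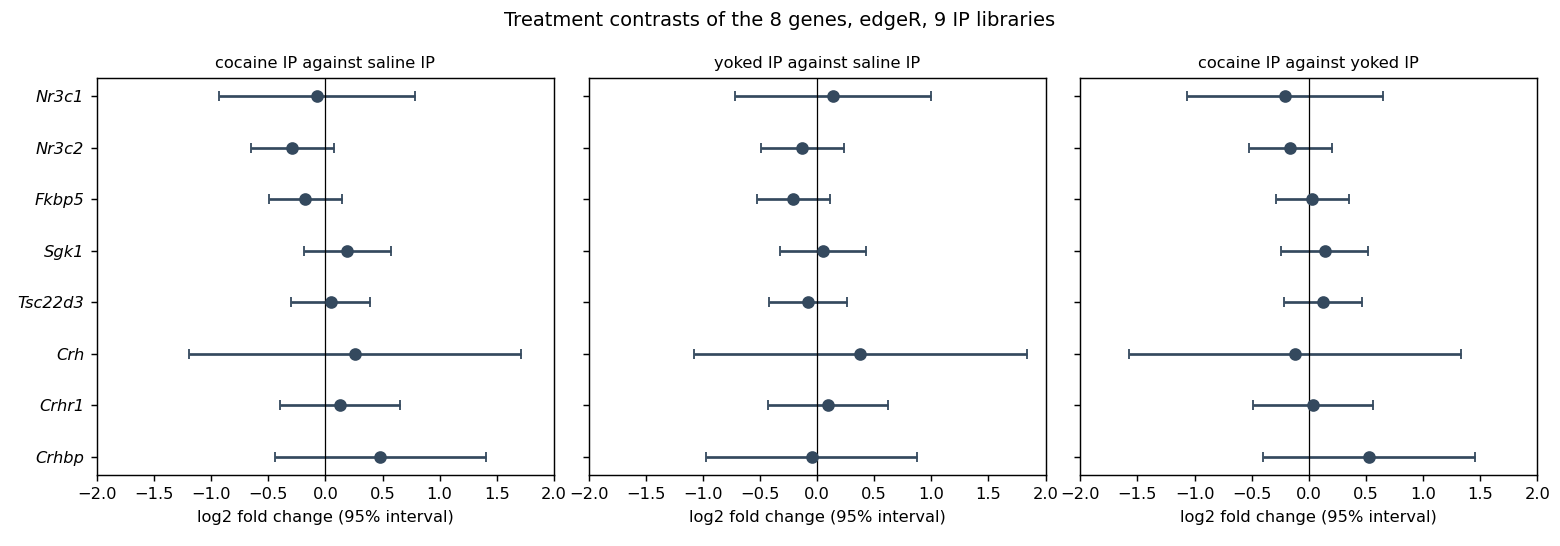
Log2 fold change of the 8 genes in the 3 treatment contrasts (edgeR, 9 IP libraries), points with 95% intervals, on a common horizontal axis. Every interval, from the fit without replicate number, includes 0, and those of Crh, Nr3c1 and Crhbp are the widest.

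The other genes of the pathway were followed in 6 lists of 81 genes in all, of which 71 were tested. In each list and each treatment contrast, 0 genes passed. For cocaine against saline the list medians were 0.10 for 24 further glucocorticoid-induced genes, 0.18 for 14 receptor chaperones, -0.11 for 11 coregulators, 0.18 for 5 kinases related to Sgk1 and its substrates, -0.11 for 10 genes of steroid supply and 0.13 for 7 of the hormone family, against 0.03 for all genes. For cocaine against yoked the chaperone median was 0.29 and the coregulator median -0.10, against 0.01 for all genes. The gene of the lists with the largest difference relative to its error in that contrast was H6pd, which encodes the enzyme that supplies NADPH to 11-beta-hydroxysteroid dehydrogenase type 1. H6pd had 3.13, 4.29 and 4.21 CPM in cocaine IP, 6.14, 8.41 and 7.37 CPM in yoked IP, and 6.28, 4.49 and 6.44 CPM in saline IP. All 3 cocaine libraries lay below the other 6, and 2.92% of tested genes lay below yoked without overlap, while the cocaine against yoked value of -0.90 ± 0.23 (log2, SE) did not pass (edgeR adjusted p = 0.972). Of the same list, Abcb1a, a transporter that exports glucocorticoids at the blood-brain barrier, gave -1.01 ± 0.55 for cocaine against saline and Fdx1, an electron carrier of steroid synthesis, 0.67 ± 0.36. Endothelial and mural markers summed to 25.7 to 31.8 CPM in cocaine IP and 33.3 to 36.9 CPM in saline IP, with 11 of 13 below 0 for cocaine against saline (median -0.56, 0 called). Their part in the Abcb1a value was not tested.

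Among the remaining genes named by rule for cocaine against saline, the values were 0.47 ± 0.35 for Sult1a1 and 0.43 ± 0.19 for the cell cycle inhibitor Cdkn1a, 0.33 ± 0.17 for the heat shock protein gene Dnajb1 and 0.30 ± 0.21 for Fkbp4, whose product competes with that of Fkbp5 on the receptor complex. Ppargc1a gave -0.25 ± 0.18, Nrip1 -0.21 ± 0.17, Ndrg2 0.45 ± 0.27 and Ndrg1 0.30 ± 0.20 (log2, SE). The hormone genes Avp and Pomc gave 1.25 ± 0.63 and 0.96 ± 0.49 at mean levels of at most 0.870 CPM in the libraries numbered 1 and 0.694 CPM in those numbered 2 and 3. For yoked against saline the 12 genes named by the same rule lay between -0.77 ± 0.83 (Akr1c14, an enzyme of steroid metabolism) and 1.22 ± 0.63 (Avp), and for cocaine against yoked between -1.33 ± 0.56 (Abcb1a) and 0.38 ± 0.41 (Stub1, a cochaperone gene). None passed the threshold.

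The second comparison set the 3 IP libraries numbered 1 against the 6 numbered 2 and 3, with treatment in the fit. The glucocorticoid receptor fell by 0.92 on the log2 scale in the libraries numbered 1, while the mineralocorticoid receptor gave -0.03. Crh and Crhbp also fell, and the 3 glucocorticoid-induced genes and Crhr1 did not pass. This made 3 of 8 lower and 0 of 8 higher. Across all 16417 genes 55.3% passed, 27.6% higher and 27.7% lower, so the count of members does not stand apart from the background. These libraries were singled out because they stand apart in these data, and the p-values of this comparison describe that split.

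Nr3c1 averaged 112 ± 20.5 CPM in the libraries numbered 1 and 212 ± 21.0 CPM in those numbered 2 and 3 (SD, n = 3 and 6), a ratio of 0.527 (log2 -0.92 ± 0.12 SE, edgeR adjusted p = 1.92e-05). It was the one member for which all 3 libraries lay outside the range of the other 6, below it, as for 23.9% of all tested genes. The difference was -1.19 in cocaine, -0.97 in yoked and -0.63 in saline IP. In an edgeR fit, cocaine minus saline was -0.55 for these differences. Each treatment had a single library numbered 1, so whether the differences vary between treatments could not be tested. Nr3c2 averaged 32.5 ± 7.44 CPM and 32.7 ± 1.98 CPM in the same libraries (edgeR adjusted p = 0.870).

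The same values can be given as a ratio of the 2 receptors. Per kilobase, Nr3c1 stood at 2.93 ± 0.194 times Nr3c2 in the libraries numbered 1 (range 2.76 to 3.14) and at 5.48 ± 0.761 times in those numbered 2 and 3 (range 4.45 to 6.72; SD, n = 3 and 6). The ranges did not overlap. The ratio restates the Nr3c1 difference above, on a split of libraries chosen from these data, and is not a separate result. It was 4.74 in the unbound library and 5.12 in the input library, within the range of the libraries numbered 2 and 3.

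Crh averaged 0.818 ± 0.475 CPM in the libraries numbered 1 and 2.07 ± 0.505 CPM in those numbered 2 and 3 (log2 -1.36 ± 0.36 SE, edgeR adjusted p = 0.00503). The ranges overlapped, because cocaine library 1 at 1.36 CPM was above saline library 3 at 1.29 CPM. Crhbp averaged 8.93 ± 2.48 CPM against 15.2 ± 4.45 CPM (log2 -0.78 ± 0.21 SE, edgeR adjusted p = 0.00573). The Crhbp call was lost without saline library 1 (-0.56, edgeR adjusted p = 0.0545) and without cocaine library 1 (-0.77, edgeR adjusted p = 0.0514). Relative to Crhr1, Crhbp per kilobase stood at 2.13 ± 0.552 times in the libraries numbered 1 and 4.14 ± 1.03 times in those numbered 2 and 3, with no overlap. The Crhbp levels themselves overlapped, since yoked library 3 at 8.55 CPM was below yoked library 1 at 9.46 CPM. Crhr1 was also lower in yoked library 3, at 4.11 against 5.98 CPM. The ratio of Crhbp to Crh overlapped.

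Sgk1 averaged 57.4 ± 5.78 CPM in the libraries numbered 1 and 49.3 ± 4.19 CPM in those numbered 2 and 3 (log2 0.22 ± 0.10 SE, edgeR adjusted p = 0.0766). Over 16 alternative settings its value ran from 0.14 to 0.30. It passed in 1 of them, against number 3 alone (0.30, edgeR adjusted p = 0.0460), and not in the other 15. Tsc22d3 gave 0.15 ± 0.10, Crhr1 0.19 ± 0.16 and Fkbp5 -0.07 ± 0.10 on the same scale. Over all 9 IP libraries Fkbp5 ran from 29.7 to 37.6 CPM and Nr3c2 from 23.9 to 37.5 CPM.

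**Figure D3:**
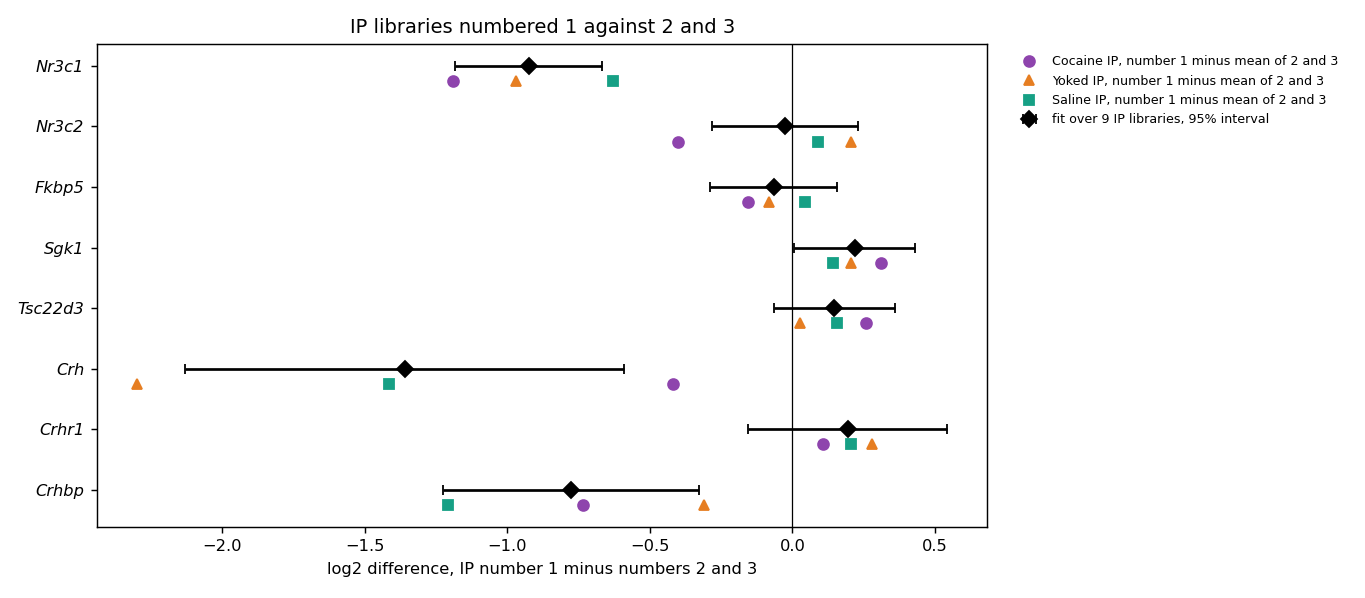
Log2 difference of each gene between IP libraries numbered 1 and those numbered 2 and 3; diamonds are the fit over 9 IP libraries with 95% intervals, coloured symbols the value within each treatment group. Nr3c1, Crh and Crhbp lie left of 0 in all 3 groups, and Nr3c2 lies left of 0 in cocaine IP and right of it in yoked and saline IP.

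Cell type markers moved with the same libraries, in which 27.6% of all tested genes were higher and 27.7% lower. Interneuron markers, which mark the main cortical source of Crh and Crhbp, summed to 560 to 715 CPM in the libraries numbered 1 and 810 to 1045 CPM in those numbered 2 and 3, with 9 of 12 lower and 2 higher by the same test. Astrocyte markers summed to 1029 to 1415 CPM against 2301 to 2896 CPM (6 of 9 lower, 1 higher), oligodendrocyte markers to 578 to 731 CPM against 1342 to 1780 CPM (7 of 9 lower) and nuclear noncoding RNAs to 211 to 423 CPM against 2432 to 7500 CPM (8 of 8 lower). Layer 5 pyramidal markers summed to 1336 to 1536 CPM against 718 to 935 CPM (10 of 12 higher). Endothelial and mural markers were also more often higher, 7 of 13 against 3 lower (median 0.61). Lower were 6 of 10 microglia markers, 4 of 6 for layers 2 to 4 (1 higher), 4 of 5 for layer 6 and 5 of 9 striatal markers (1 higher). Their part in the fall of Nr3c1, Crh and Crhbp was not tested.

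Gene length moved with these libraries as well. A GENCODE length was matched for 88.5% of tested genes. The median log2 difference was 0.51 for 1946 genes under 2 kb of exon, 0.23 for 4445 genes of 2 to 4 kb, 0.02 for 3514 genes of 4 to 6 kb, -0.13 for 2019 genes of 6 to 8 kb and -0.32 for 2605 genes over 8 kb. Crh (1.32 kb) and Crhbp (1.80 kb) are in the shortest class, with differences of -1.36 and -0.78. Nr3c1 (7.68 kb) and Nr3c2 (6.47 kb) are in one class, whose middle 50% of genes spanned -0.64 to 0.26: Nr3c1 lay below that span and Nr3c2 within it. Fkbp5 (9.47 kb), in the longest class, lay above the class median and within its quartiles of -0.87 and 0.10. The part of gene length in the values of these members was not tested.

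Among the other genes of the pathway, the chaperones that hold the receptors in a hormone-binding state were higher in the libraries numbered 1: 11 of 14 rose and 0 fell, with a list median of 0.55 against 0.01 for all genes. Their summed level was 4841 to 5531 CPM in the libraries numbered 1 and 2793 to 3647 CPM in those numbered 2 and 3. Hsp90ab1, a constitutive form of the chaperone HSP90, averaged 3042 ± 150.0 CPM against 1685 ± 174 CPM (log2 0.85 ± 0.10 SE, edgeR adjusted p = 9.86e-06). The coregulators through which the receptors act on transcription went the other way, with 6 of 11 lower and 0 higher (median -0.39). Of the genes related to Sgk1, 4 of 5 were lower and 0 higher (median -0.42). Over all tested genes 27.6% were higher and 27.7% lower in this comparison. The lists were not matched for gene length: Hsp90ab1 is shorter in exon than the coregulator genes Ncor1 and Crebbp. By length class, the median of all genes was 0.23 at 2 to 4 kb and -0.32 over 8 kb. The part of length in these list values was not tested.

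The remaining lists were mixed. Of 24 further glucocorticoid-induced genes 3 rose and 10 fell (median -0.27), against 27.6% of all tested genes higher and 27.7% lower. Fam107a, an actin-binding protein gene, averaged 57.1 ± 18.0 CPM in the libraries numbered 1 and 206 ± 25.2 CPM in those numbered 2 and 3 (log2 -1.88 ± 0.13 SE), and Wipf3 101 ± 24.0 CPM against 216 ± 12.1 CPM (log2 -1.11 ± 0.14 SE). Bcl6, a transcriptional repressor gene, averaged 120 ± 14.3 CPM against 67.6 ± 5.16 CPM (log2 0.82 ± 0.10 SE). These 3 and the 2 that follow had edgeR adjusted p-values between 6.95e-08 and 1.61e-05.

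In the steroid supply list 4 of 10 rose and 1 fell, with a median log2 difference of 0.22, against 27.6% of all genes higher, 27.7% lower and a median of 0.01. Hsd11b1, which encodes the enzyme that regenerates active corticosterone inside cells, had 17.4 CPM in cocaine library 1, 9.91 CPM in yoked library 1 and 12.95 CPM in saline library 1. The other 6 IP libraries held 3.77 to 5.28 CPM, the unbound library 3.09 CPM and the input library 4.12 CPM, so every library numbered 1 was above all others (log2 1.51 ± 0.16 SE). Of 7 tested genes of the hormone family 2 rose and 1 fell (median -0.22). Pcsk1, which encodes a protease that cuts prohormones, averaged 16.3 ± 1.86 CPM against 8.14 ± 0.879 CPM (log2 1.002 ± 0.13 SE). The other receptor for the Crh family, Crhr2, had 5 to 21 reads per library.

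**Figure D4:**
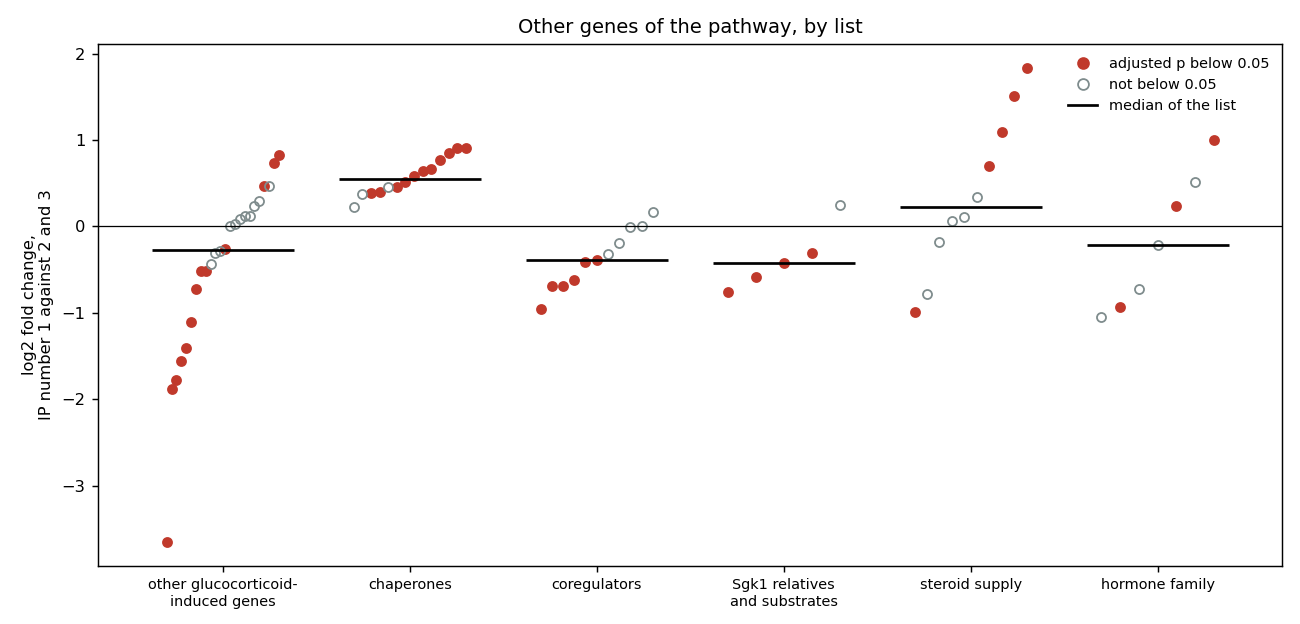
Log2 fold change of IP libraries numbered 1 against 2 and 3 for each tested gene of the 6 pathway lists; filled points passed an edgeR adjusted p of 0.05, open points did not, and black lines are list medians. All 14 chaperones lie above 0, and 9 of 11 coregulators lie below it.

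The third comparison asked where the RNA of these genes sat relative to the ribosome pull-down. Each IP library was set against the single other fraction of its group, and a gene was called where all 3 differed by at least 2-fold in 1 direction. Against the cocaine unbound library, 0.525% of 13517 genes were called higher and 1.89% lower. That library was the shallowest, at 20926712 gene counts. Reads over several genes made up 7.34% of it, against 1.56% to 1.91% in the other libraries. Reads aligned to several places made up 28.3%, against 35.6% to 47.0%. The part of these differences in the ratios was not tested. Crh was the one member called, lower, and no member was called higher. It had 1.36, 1.72 and 1.96 CPM in cocaine IP and 4.86 CPM (102 reads) in the unbound library. The log2 ratios were -1.80, -1.47 and -1.29, on average 0.349 times the unbound level. Every IP library was below the unbound library, and an edgeR fit over all 11 libraries did not call the difference (adjusted p = 0.539).

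Crhr1, whose product receives that signal, was placed the other way: 5.68, 5.37 and 5.16 CPM in cocaine IP against 3.29 CPM in the unbound library, with log2 ratios of 0.78, 0.70 and 0.64. The ratios were close together and short of 2-fold. Sgk1 (0.66, 0.41 and 0.29), Tsc22d3 (0.41, 0.27 and 0.02) and Fkbp5 (0.12, 0.39 and 0.17) were also above the unbound library in all 3, as were 36.3% of all genes compared. Nr3c1 (-0.71, 0.54 and 0.43), Nr3c2 (-0.11, 0.30 and 0.28) and Crhbp (-0.66, -0.20 and 0.33) changed sign between libraries, with the library numbered 1 the lowest each time.

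Against the saline input library, 0.0741% of 13487 genes were called higher and 0.0445% lower, and no member was called. Nr3c2 (0.20, 0.08 and 0.13) and Fkbp5 (0.16, 0.17 and 0.06) were above the input in all 3 saline IP libraries, as were 18.8% of all genes. Sgk1 (-0.06, -0.20 and -0.20) and Crhr1 (-0.07, -0.0034 and -0.55) were below it in all 3, as were 17.6%. For Nr3c1 the ratios were -0.62, 0.08 and -0.07, for Crh -1.30, 0.53 and -0.30, and for Crhbp -1.16, 0.18 and -0.09, again with library 1 the lowest. Tsc22d3 gave 0.06, -0.12 and -0.07. Layer 5 markers had median log2 ratios of 1.01, 0.0038 and 0.38 over the input and 1.03, 0.39 and 0.22 over the unbound library, highest in the library numbered 1 of both groups.

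Crh stood at 4.86 CPM in the unbound library and 1.61 CPM (66 reads) in the input, while Crhr1 stood at 3.29 and 5.70 CPM. These 2 libraries differ in treatment, fraction, lane, depth and share of reads over several genes together. Each is a single sample, so no test was made. Interneuron markers summed to 1215 CPM in the unbound library, above the 594 to 1045 CPM of the cocaine IP libraries and the 841 CPM of the input, and choroid plexus markers to 35.3 CPM in the unbound library against 1.51 to 4.87 CPM and 3.78 CPM. Their part in the Crh difference was not tested. Hypothalamic markers summed to 1.81 CPM in the unbound library, against 1.38 to 2.22 CPM in cocaine IP. Of 62 other pathway genes compared with the unbound library, 1 was called: Mt2, a metallothionein induced by glucocorticoids, with 18.1, 24.1 and 25.4 CPM in cocaine IP and 70.4 CPM in the unbound library. None of 64 was called against the input.

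**Figure D5:**
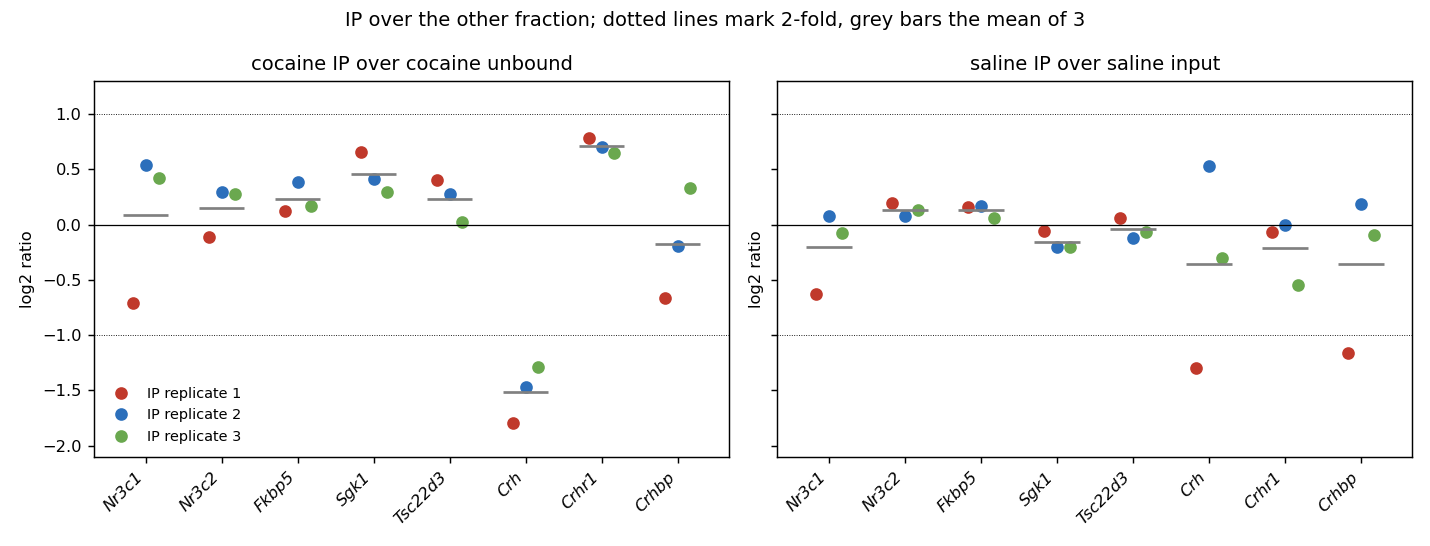
Log2 ratio of each IP library to the unbound library (left, cocaine group) and to the input library (right, saline group) for the 8 genes; points are IP libraries by replicate number, grey bars their mean, dotted lines 2-fold. Crh is below the lower dotted line in all 3 cocaine libraries, and Crhr1 lies between 0.64 and 0.78 there.

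Genes with the most similar pattern were sought over the 9 IP libraries after the mean of each replicate number was taken away, since the pooled libraries fall into separate clusters. The highest Pearson r was 0.98 for Nr3c1 (with Tbl2), 0.99 for Nr3c2 (Ankrd17), 0.99 for Fkbp5 (Arl15), 0.99 for Sgk1 (S100a6), 0.99 for Tsc22d3 (Mllt11), 0.99 for Crh (B3galnt1), 0.98 for Crhr1 (Dkk3) and 0.99 for Crhbp (Rab3b). Values this high are found for every member when 13444 genes are compared over 9 libraries, which share a lane within a group. None of the other 7 members was among the 3 genes most like any member.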

How the data were processed

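Ribosome-bound, unbound and input RNA was sequenced in 11 mouse libraries. The authors deposited raw read counts per gene symbol, made, per the submitters' processing notes, with STAR 2.0.0e on mm10 and HTSeq. For HTSeq, its version, annotation and strand setting were not given in the sources used here. HTSeq's summary entries and a row named unknown, 6 rows in all, were left out. They held reads in no feature (6.28% to 15.5%), over several genes (1.56% to 7.34%) or aligned to several places (28.3% to 47.0%), and the last lowers genes with near-identical copies such as Hspa1a and Hspa1b.

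The 9 IP libraries were fitted as 3 group means in edgeR 4.0.16 (R 4.3.3; TMM, filterByExpr, robust quasi-likelihood, Benjamini-Hochberg over 16417 genes, threshold 0.05). Error is the SE of the log2 fold change, and intervals are 95%. The replicate number contrast added number to treatment. Fraction ratios used log2 CPM with a prior count of 2 for genes averaging at least 1 CPM. The scripts were tested on simulated data. For the treatment contrast these held no replicate number effect, so they do not show what that fit can detect here. Same-numbered libraries deviated together (r of 0.376 to 0.794 over 9 pairs of libraries from different groups, from the data and not the labels). Different-numbered pairs ran from -0.740 to 0.621 over 18 pairs, and numbers 2 and 3 correlated about as well with each other as with themselves, so the numbers mainly set number 1 apart. A fit with replicate number as a block was run and changed no member's call. None of the 9 within-group pairs of IP libraries agreed within counting noise.

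The members and lists were chosen with earlier results of these data known. Named besides the 8 members were, per comparison, the pathway genes that passed if at most 6 did, otherwise the 6 with the smallest adjusted p, and with none the 2 largest changes per list. For yoked against saline and cocaine against yoked these are given by their extremes. Levels per length used GENCODE M21 exons, which may differ from the authors' annotation. Alternatives were DESeq2 1.42.0 and other scaling, filters, prior counts and libraries left out.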

Additional observations from a re-analysis of the deposited data

Results flagged for a closer look

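The number effect on Nr3c2 differed in sign between treatment groups: number 1 minus the mean of numbers 2 and 3 was -0.40 in cocaine IP, 0.21 in yoked IP and 0.090 in saline IP (log2 CPM). In the cocaine group library 1 was below both others, and in the yoked and saline groups it was above both others. In an edgeR fit of the difference itself, cocaine minus yoked was -0.61 and cocaine minus saline was -0.48 (log2). Each treatment had a single library numbered 1, so the spread among such libraries could not be measured and no test is given. Nr3c2 in cocaine library 1 rested on 986 reads, with a 95% counting interval of 22.5 to 25.5 CPM.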

How the results depend on the processing

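With numbers as a replicate block, 0 genes were called in the 3 treatment contrasts, as without it; Crhbp in yoked against saline became 0.025 and Crh in cocaine against yoked 0.13, both a change of sign, and no other member's direction or call changed. Without the libraries numbered 1, Nr3c1 in cocaine against saline became 0.0429 and Nr3c2 in cocaine against yoked 0.0365, with the block as well 0.0433 and 0.0365, an alternative chosen after seeing the data. Leaving out 1 library at a time called 0 genes and moved the treatment values across 0 for Nr3c1 (-0.31 to 0.23 for cocaine against saline, -0.075 to 0.39 for yoked against saline, -0.46 to 0.089 for cocaine against yoked), Crh (-0.10 to 0.81 for cocaine against saline, -0.57 to 0.21 for cocaine against yoked), Crhr1 (-0.028 to 0.21, -0.063 to 0.26 and -0.13 to 0.13 in the 3 contrasts), Tsc22d3 (-0.042 to 0.13 for cocaine against saline), Sgk1 (-0.019 to 0.17) and Crhbp (-0.40 to 0.22) for yoked against saline, and Fkbp5 (-0.068 to 0.081) for cocaine against yoked. For number 1 against 2 and 3, leaving out 1 library gave 7837 to 8774 called genes, Nr3c1 -1.07 to -0.80, Crh -1.93 to -0.95, Crhbp -0.996 to -0.56 and Nr3c2 -0.15 to 0.15; every alternative kept the calls of Nr3c1 and Crh. Counts of genes 2-fold apart in every library moved most. Over the unbound library they were 171 higher and 749 lower with a minimum of 0.1 CPM, 113 to 209 higher and 295 to 420 lower with 1 library left out, and 2 and 8 by edgeR over all 11 libraries. Over the input they were 114 and 133 with the 0.1 CPM minimum, 15 to 29 and 10 to 46 with 1 library left out, and 0 and 0 by edgeR. Fewer libraries or a lower minimum admit more genes by construction. Crhr1 over the unbound library was 0.62 with other size factors and 0.63 by edgeR. Depth limits Crh most. For cocaine against saline the SE was 0.13 with the block and 0.38 without it for Nr3c1, and 0.23 and 0.41 for Crhbp.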
